A study of Homo sapiens with 15 samples.

Results

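The exon junction complex (EJC) genes are described here in cells that expressed a form of the RNA helicase UPF1. The rule took the rows of the deposited table whose symbol was EIF4A3, MAGOH, MAGOHB, RBM8A, CASC3, RNPS1, ACIN1, SAP18 or PNN. All 9 were found among 12261 genes, and all 9 passed the filter on low values in every comparison below. The table held 1 Ensembl transcript per gene, so a value stands for that transcript and not for the whole gene.

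The EJC is a protein assembly that the spliceosome leaves on mRNA just upstream of each joined pair of exons. It travels with the mRNA to the cytoplasm and is normally removed by the first ribosome that translates it. A complex that is left downstream of a stop codon marks that stop as premature, and through UPF3B and UPF2 it promotes action by UPF1 and nonsense-mediated decay (NMD). The core is the helicase EIF4A3, held on RNA by RBM8A bound to MAGOH or to its paralog MAGOHB, with CASC3 as a further subunit. RNPS1 and SAP18 bind the core together with ACIN1 (the ASAP complex) or with PNN (the PSAP complex).

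Libraries came from HEK-293 Trex cells, a kidney-derived human line in which doxycycline switches on a transgene. The lines carried CLIP-UPF1 isoform 1 (UPF1-1), CLIP-UPF1 isoform 2 (UPF1-2) or GFP, and all cells, GFP cells included, received 200 ng/mL doxycycline. The UPF1 isoforms differ in a regulatory loop, and CLIP is a self-labelling protein tag. There were 3 libraries each of RNA purified with UPF1-1, RNA purified with UPF1-2, UPF1-1 total RNA, UPF1-2 total RNA and GFP total RNA, 15 in all; purified RNA is called IP. Purified RNA from GFP cells was not analysed here, so recovery is set against total RNA and not against a mock purification. Each construct was in a line of its own, and effects of the line and of the protein cannot be told apart. The labels do not say whether a line was 1 clone or whether replicates were separate cultures, so p-values measure only the spread between these libraries. In RNA from whole cultures, fewer cells with a transcript and less of it per cell cannot be told apart.

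Levels are in TPM, the share of transcripts in a library after scaling by transcript length. UPF1 had 106, 94.5 and 186 TPM in UPF1-1 total RNA and 68.9, 72.7 and 171 TPM in UPF1-2 total RNA, against 3.24, 3.80 and 8.57 TPM in GFP total RNA, for replicates 1, 2 and 3. The table's genes held 44.7 to 69.9% of the TPM scale in IP libraries and 12.2 to 19.0% in total RNA libraries. Of 7 genes listed as marks of HEK-293 cells, 4 (VIM, KRT8, KRT18 and NEFL) were analysed, each at 6.37 TPM or above in all 9 total RNA libraries. NEFM, PAX2 and LHX1, and all 7 genes listed for leukocytes, hepatocytes, fibroblasts, endothelium and erythroid cells, were not analysed here. Replicate 3 stood apart from replicates 1 and 2 in every group, so the fit had a term for the replicate number and library medians were set equal. Results are given below with and without replicate 3 where it bears on them.

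In total RNA the EJC transcripts covered a wide range of levels. The splicing activator RNPS1 (ENSG00000205937, transcript ENST00000320225) was highest, at 59.4 ± 17.6 TPM in UPF1-1, 56.1 ± 28.7 TPM in UPF1-2 and 54.0 ± 18.1 TPM in GFP cells (SD, n = 3 each). SAP18 (ENSG00000150459, ENST00000382533), a small ubiquitin-fold subunit of both peripheral complexes, was at 21.5 ± 1.31, 21.7 ± 4.24 and 21.3 ± 0.75 TPM in the same lines. Below them MAGOHB (ENSG00000111196, ENST00000320756) averaged 19.2, 18.7 and 16.8 TPM, and the helicase EIF4A3 (ENSG00000141543, ENST00000269349) 14.0, 15.1 and 15.2 TPM. Means of RBM8A (ENSG00000131795, ENST00000369307), the RNA-binding-fold partner of MAGOH, were 10.9, 10.8 and 11.4 TPM. MAGOH (ENSG00000162385, ENST00000371466) averaged 11.0, 12.2 and 11.0 TPM and CASC3 (ENSG00000108349, ENST00000264645) 8.91, 8.43 and 7.90 TPM. The scaffolds of the peripheral complexes were lowest, PNN (ENSG00000100941, ENST00000216832) at 2.16, 2.82 and 2.40 TPM and ACIN1 (ENSG00000100813, ENST00000457657) at 2.45, 2.39 and 2.29 TPM. The ranges of neighbours in this order overlapped from MAGOHB down to CASC3 in each line, and those of PNN and ACIN1 overlapped each other. SAP18 and MAGOHB overlapped in the UPF1 lines but not in GFP cells, and CASC3 and PNN overlapped in UPF1-2 cells alone of the 3 lines. RNPS1 lay above every other member in all 9 total RNA libraries. In the GFP line its mean stood at percentile 97.2 of the table's genes, while PNN and ACIN1 stood at 56.7 and 55.3.

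**Figure D1:**
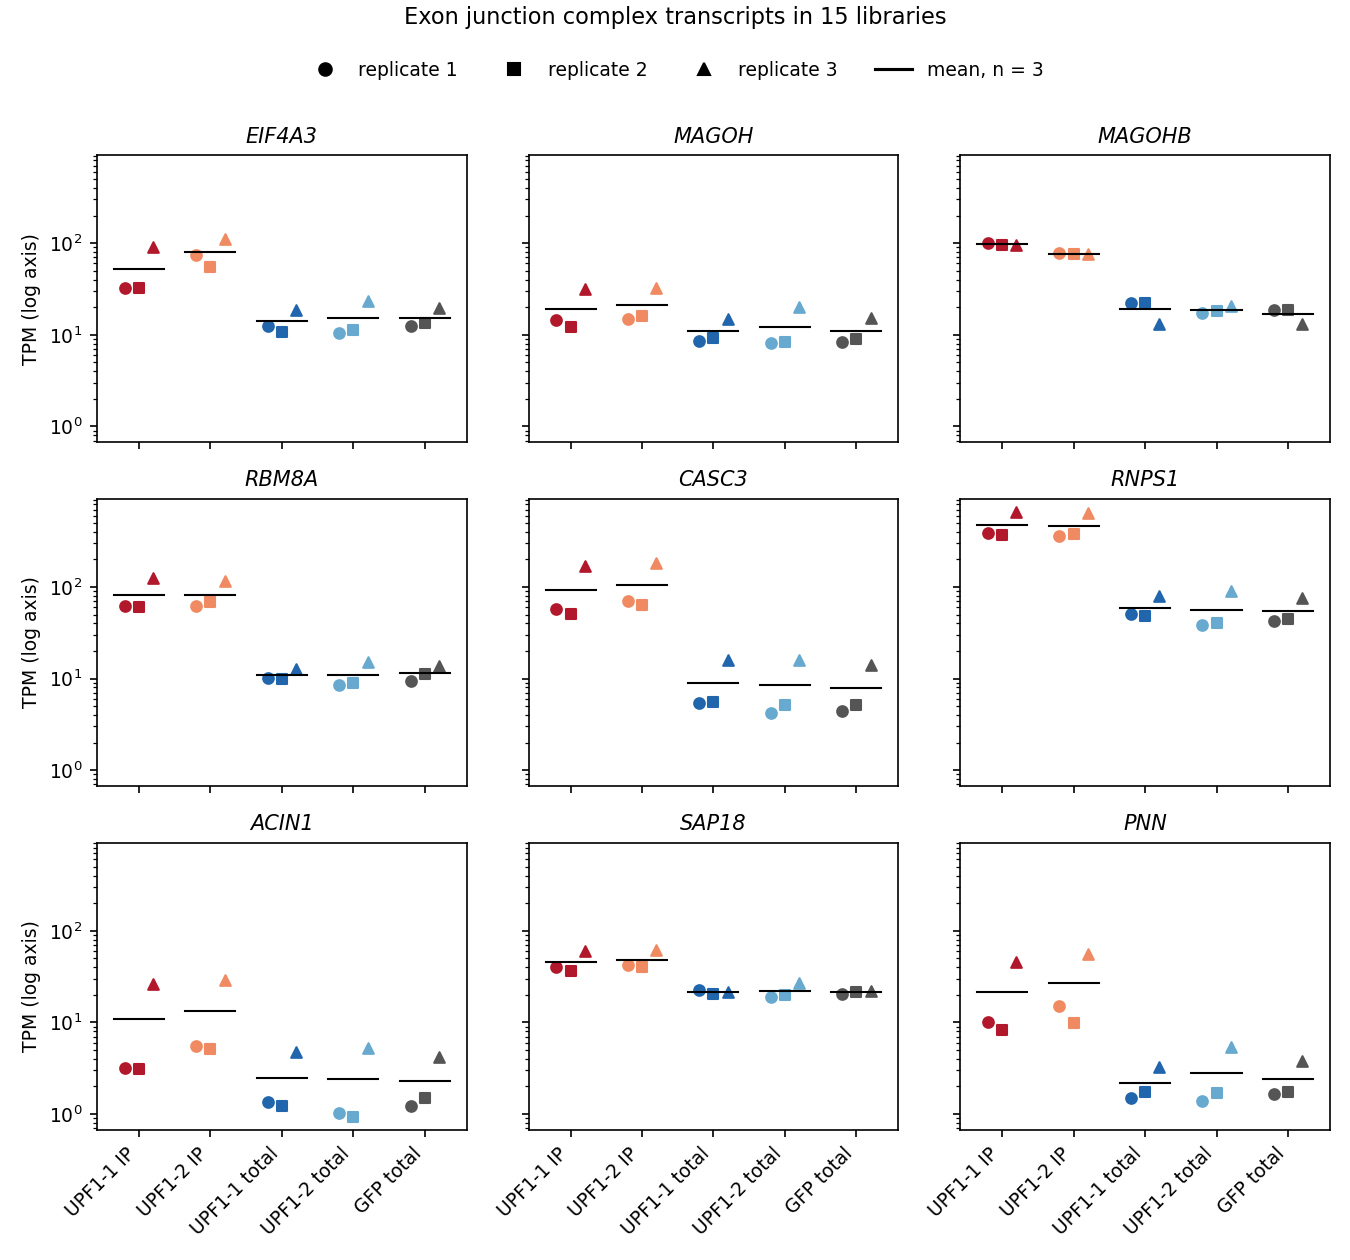
Level of each EJC transcript in TPM (log axis) in the 15 libraries, with a point shape for each replicate number and a line for the mean of 3. IP points lie above total RNA points for most genes, with overlapping ranges for MAGOH and ACIN1, and replicate 3 (triangles) is set apart for CASC3, ACIN1 and PNN.

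Copies with similar sequence limit some of these levels, since reads from them may have been split between entries. MAGOH and MAGOHB encode nearly the same protein. The table also held the entry RNPS1P1, at 0.97 to 2.04 TPM in total RNA, far below RNPS1, and RBM8B, at 1.75 to 4.99 TPM in total RNA, closer to RBM8A. How kallisto shared reads among such pairs was not tested.

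The first comparison asked whether EJC transcripts differed between UPF1-1 and GFP total RNA. They differed little, and the estimates of all 9 lay between -0.22 and 0.08 on the log2 scale. The core helicase transcript EIF4A3 was the 1 member that passed, 1 of 9 called lower and none called higher. By limma with Benjamini-Hochberg adjustment over 9325 genes, 16.2% of all genes were called in this comparison, 7.79% lower and 8.38% higher, so a share of 1 in 9 is near the background. That background moves with the processing: 726 genes lower and 781 higher became 5 and 11 with no replicate block, 35 and 266 with no centring, 976 and 638 under upper-quartile scaling, and 71 and 135 without replicate 2 (273 and 316 without replicate 1). The members' median was -0.08, against -0.01 for all genes tested.

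EIF4A3 had 12.5, 10.6 and 18.7 TPM in UPF1-1 total RNA, against 12.5, 13.4 and 19.7 TPM in GFP total RNA. These ranges overlapped. After library medians were set equal, the UPF1-1 library was lower at each of the 3 replicate numbers, by log2 differences of -0.17, -0.36 and -0.12. The fitted difference was -0.22 ± 0.06 (SE), 0.86-fold, with a limma adjusted p of 0.044. It was -0.27 without replicate 3 (limma adjusted p 0.042), but it did not pass without replicate 1 (0.13) or replicate 2 (0.38), or in the fit with no replicate block (0.88). It was also lost with no centring of the libraries (-0.13, 0.69), with a pseudocount of 1 TPM (0.052) and with no filter on low values (0.087). In the authors' deposited table the sleuth q-value of EIF4A3 was 1, as it was for all 9 members in each comparison of total RNA. That table had few genes with a q-value below 0.05, 45 of 12243 for UPF1-1 and GFP, 4 of 12246 for UPF1-2 and GFP and 17 of 12244 for the UPF1 isoforms, so that none among 9 members tells little about them.

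The other core transcripts did not pass. RBM8A had 10.2, 10.0 and 12.6 TPM in UPF1-1 total RNA, against 9.45, 11.1 and 13.6 TPM in GFP total RNA, and its log2 difference of -0.14 (95% interval -0.27 to -0.01) had a limma adjusted p of 0.13. The heterodimer subunits MAGOH and MAGOHB had log2 differences of -0.08 (-0.22 to 0.06) and 0.08 (-0.13 to 0.29), and CASC3, the subunit that joins mostly in the cytoplasm, had 0.08 (-0.06 to 0.22). Among the peripheral subunits PNN had 1.502, 1.74 and 3.25 TPM in UPF1-1, against 1.64, 1.74 and 3.81 TPM in GFP cells, a log2 difference of -0.19 (-0.37 to -0.01; limma adjusted p 0.14). RNPS1, ACIN1 and SAP18 differed by 0.06, -0.07 and -0.08. The intervals of RNPS1 and SAP18, the narrowest here, ran from -0.05 to 0.17 and from -0.19 to 0.03.

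UPF1-2 total RNA was set against the same GFP libraries, so the comparisons with GFP share them. No member was called by limma (0 of 9, with 1 at an unadjusted p under 0.05), where 0.375% of all genes were called. Of all genes tested, 1128 of 9325 had an unadjusted limma p under 0.05, so 1 of 9 is near the background. Estimates lay between -0.15 for ACIN1 and 0.14 for MAGOHB, with a median of -0.02 against -0.02 for all genes tested. EIF4A3 had 10.5, 11.2 and 23.6 TPM in UPF1-2 total RNA, against 12.5, 13.4 and 19.7 TPM in GFP total RNA. Its difference was -0.10 (95% interval -0.24 to 0.04), beside -0.22 in UPF1-1 cells. RBM8A was the member at an unadjusted p under 0.05, at -0.13 (-0.26 to -0.0028), close to its -0.14 in UPF1-1 cells.

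Between the isoforms, UPF1-1 against UPF1-2 total RNA, no member was called either (0 of 9, with 1 at an unadjusted p under 0.05), where 9.51% of all genes were, 5.49% higher and 4.02% lower. Of all genes tested, 2636 of 9325 had an unadjusted limma p under 0.05, a larger share than 1 of 9. PNN, the PSAP scaffold, came nearest. It had 1.502, 1.74 and 3.25 TPM in UPF1-1, against 1.39, 1.71 and 5.36 TPM in UPF1-2 total RNA, and after medians were set equal it was lower in UPF1-1 at all 3 numbers, by -0.21, -0.10 and -0.41. The fitted difference was -0.24 (95% interval -0.42 to -0.06), with a limma adjusted p of 0.086. For EIF4A3 the difference between the isoforms was -0.11 (-0.25 to 0.03), so the call of EIF4A3 in UPF1-1 cells was not shown to differ from its value in UPF1-2 cells. The other members lay between -0.12 for MAGOH and 0.10 for RNPS1.

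**Figure D2:**
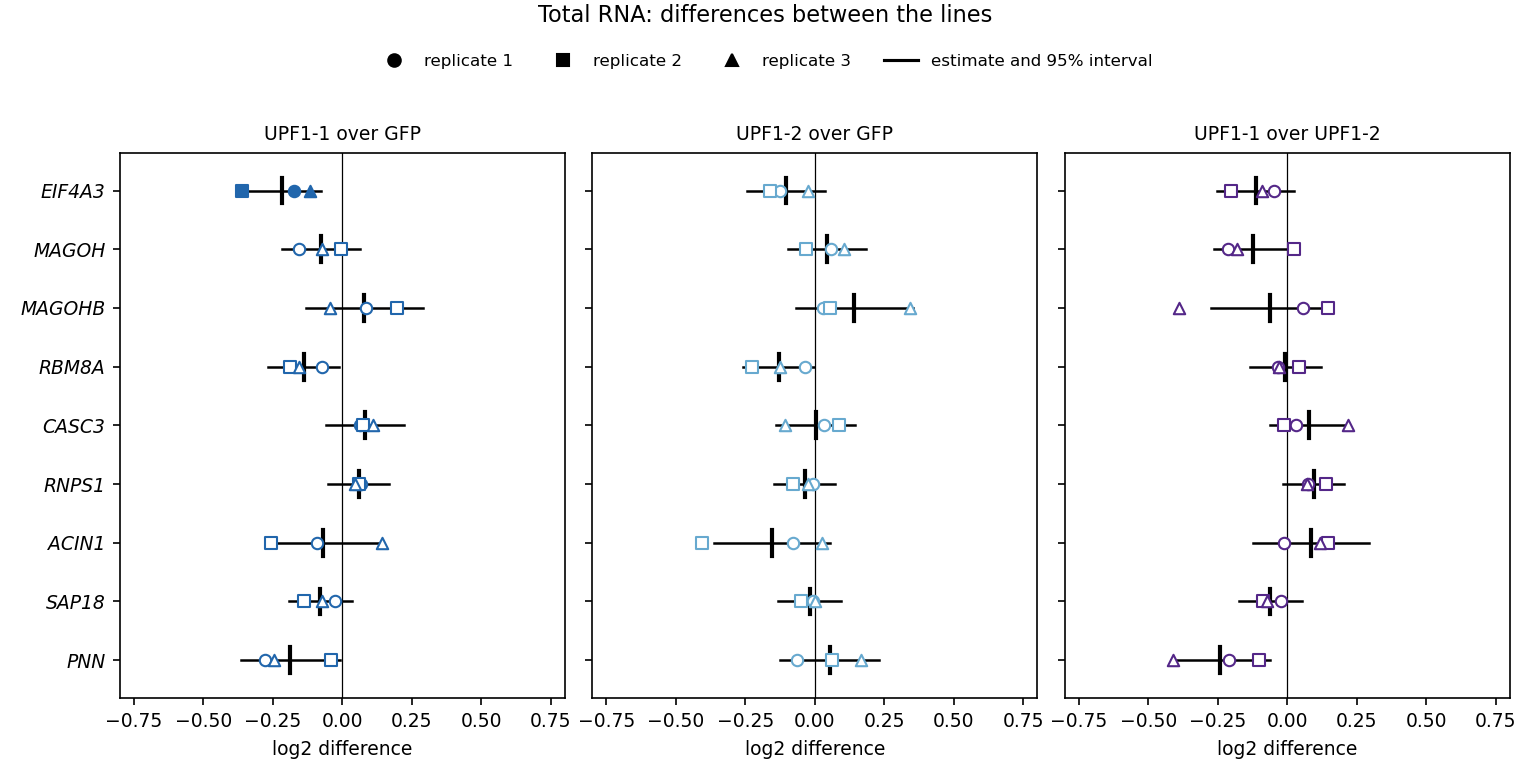
Log2 difference in total RNA for each EJC transcript, with UPF1-1 over GFP, UPF1-2 over GFP and UPF1-1 over UPF1-2 in the 3 panels; points are replicate numbers after library medians were set equal, bars are 95% intervals, and filled points mark a limma adjusted p below 0.05. EIF4A3 in UPF1-1 over GFP is the 1 filled row.

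Several EJC transcripts differed more between replicate 3 and the other replicates than between the lines. In centred total RNA, replicate 3 exceeded the mean of replicates 1 and 2 by log2 values of 1.04 (UPF1-1), 0.83 (UPF1-2) and 1.00 (GFP) for CASC3, and by 1.17, 1.12 and 0.85 for ACIN1. PNN was higher there by 0.42, 0.68 and 0.51. MAGOHB went the other way, with replicate 3 at -1.14, -0.65 and -0.95, while its paralog MAGOH was at 0.32, 0.40 and 0.31. SAP18 was also lower in replicate 3, at -0.41, -0.39 and -0.42. In each line 6 members were higher and 3 were lower in replicate 3, and the same members in all 3 lines. How many of all genes kept 1 direction in all 3 lines was not counted. Averaged over the lines, 5.49% of 9325 genes moved by more than 1 either way. Among them ACIN1 stood at percentile 97.1, CASC3 at 96.1, PNN at 85.4 and MAGOHB at 3.1. The other members lay between 24.1 (SAP18) and 75.5 (MAGOH). Replicates 2 and 1 differed by at most 0.21 for any member in any line. What set replicate 3 apart was not tested.

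Purified RNA was then set against total RNA, which addresses which EJC transcripts came down with each UPF1 isoform. In TPM, every member was higher in IP than in total RNA of the same replicate number, in 54 of 54 ratios, which ran from 1.31 (MAGOH) to 16.6 (CASC3). Most genes of the table were higher too, as the table held more of the TPM scale in the IPs. Before centring, the median gene was 2.40 higher on the log2 scale with UPF1-1 and 2.38 higher with UPF1-2. Recovery is therefore given below relative to the library medians, and "lower" means below the level at which library medians are equal, not depleted in TPM. The median gene itself lay slightly below that level, at -0.16 with UPF1-1 and -0.15 with UPF1-2, so a value near these is ordinary. On that scale the members spread over a wide range. CASC3 and RNPS1 lay above the median gene with both isoforms, and MAGOH and SAP18 far below it with both. RNPS1 stood at percentile 75.2 with UPF1-1 and 80 with UPF1-2, and its value with UPF1-1 depended on the pseudocount, as given below.

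With UPF1-1, 2 of 9 members were called higher and 5 lower by limma, where 74.7% of 11969 genes were called, 30.8% higher and 43.9% lower. With UPF1-2, 3 were higher and 3 lower, where 75.7% of genes were called, 31.5% higher and 44.2% lower. These shares are near the background. The members' medians were -0.21 with UPF1-1 and -0.12 with UPF1-2, against -0.16 and -0.15 for all genes tested. Without centring all 9 were called higher with each isoform, but the median gene was then itself higher by 2.40 with UPF1-1 and 2.38 with UPF1-2. That count therefore says little about the members. Without replicate 3 the counts were 2 higher and 5 lower with UPF1-1 and 3 higher and 4 lower with UPF1-2, ACIN1 being added.

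CASC3 was the member with the highest recovery. It had 57.4, 50.3 and 171 TPM in UPF1-1 IP, against 5.36, 5.60 and 15.8 TPM in UPF1-1 total RNA. With UPF1-2 it had 69.6, 62.8 and 181 TPM in IP, against 4.19, 5.15 and 15.9 TPM in total RNA. IP and total RNA did not overlap with either isoform, and replicate 3 was high in both. Recovery was 0.69 ± 0.09 (SE) on the log2 scale with UPF1-1 (limma adjusted p 0.00011; percentile 86.6 of genes tested) and 1.09 ± 0.09 with UPF1-2 (7.3e-06; percentile 93.8). With UPF1-1 it did not pass in the fit with no replicate block (limma adjusted p 0.15).

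RNPS1, the abundant member, followed. It had 384, 370 and 660 TPM in UPF1-1 IP and 359, 380 and 646 TPM in UPF1-2 IP, against 50.3, 48.3 and 79.8 TPM in UPF1-1 total RNA and 38.8, 40.2 and 89.3 TPM in UPF1-2 total RNA. Recovery was 0.40 ± 0.09 with UPF1-1 (limma adjusted p 0.0042) and 0.56 ± 0.09 with UPF1-2 (0.00063). The value with UPF1-1 did not pass without replicate 1 (0.36, limma adjusted p 0.075), or with a pseudocount of 0.1 TPM, where it was 0.20 (0.061).

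RBM8A lay above the median gene, at percentile 67.5 of genes tested with UPF1-1 and 71.1 with UPF1-2. It had 62.2, 60.1 and 124 TPM in UPF1-1 IP, against 10.2, 10.0 and 12.6 TPM in UPF1-1 total RNA. In UPF1-2 IP it had 62.3, 67.8 and 115 TPM, against 8.48, 8.88 and 15.2 TPM in UPF1-2 total RNA. Its recovery of 0.22 (95% interval 0.01 to 0.42) with UPF1-1 did not pass (limma adjusted p 0.053), though it did with a pseudocount of 1 TPM (0.38, 0.0031) and with no filter on low values (0.047), and where the replicate number was also a term for recovery (0.011). Its recovery of 0.32 (0.12 to 0.52) with UPF1-2 passed (0.0095). The test of the difference between the isoforms gave -0.11 (-0.39 to 0.18), and the call with UPF1-2 was lost without replicate 2 (0.066), under upper-quartile scaling (0.090) and with a pseudocount of 0.1 TPM, where recovery was 0.14 (0.22).

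PNN was the most scattered. It had 10.2, 8.17 and 45.8 TPM in UPF1-1 IP and 15.1, 9.95 and 56.0 TPM in UPF1-2 IP, beside the low total RNA values above. Its centred recovery ran from -0.44 to 0.78 with UPF1-1 and from -0.25 to 0.82 with UPF1-2, with replicate 2 lowest and replicate 3 highest in both. The estimates, 0.10 (95% interval -0.45 to 0.66) and 0.32 (-0.23 to 0.88), did not pass. Without replicate 2 the value with UPF1-2 was 0.60 and passed (limma adjusted p 0.020), and 0.32 passed where the replicate number was also a term for recovery (0.0044). Without replicate 3 the value with UPF1-1 was -0.24 and did not pass. With UPF1-2 recovery was 0.40, -0.25 and 0.82 at replicates 1, 2 and 3, so its estimate rests in part on replicate 3.

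MAGOH was recovered least. It had 14.3, 12.2 and 31.2 TPM in UPF1-1 IP, against 8.58, 9.32 and 15.05 TPM in UPF1-1 total RNA. In UPF1-2 IP it had 15.03, 15.9 and 32.7 TPM, against 8.10, 8.36 and 20.2 TPM in UPF1-2 total RNA. The ranges overlapped with both isoforms. Relative to the medians, recovery was -1.86 ± 0.08 with UPF1-1 (limma adjusted p 3.4e-07; percentile 6.6) and -1.72 ± 0.08 with UPF1-2 (5.7e-07; percentile 7.9).

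SAP18 was similarly low. It had 40.5, 36.3 and 60.1 TPM in UPF1-1 IP and 42.5, 40.3 and 62.0 TPM in UPF1-2 IP, against 22.8, 20.2 and 21.4 TPM in UPF1-1 total RNA and 18.9, 19.7 and 26.6 TPM in UPF1-2 total RNA. Its TPM was higher in IP without overlap, yet by less than for most genes, and recovery was -1.52 ± 0.08 with UPF1-1 (limma adjusted p 1.0e-06) and -1.40 ± 0.08 with UPF1-2 (1.5e-06). MAGOH and SAP18 passed below 0 in every alternative run except those with no centring, where both were above 0 (MAGOH 0.70 and 0.81, SAP18 1.04 and 1.12).

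**Figure D3:**
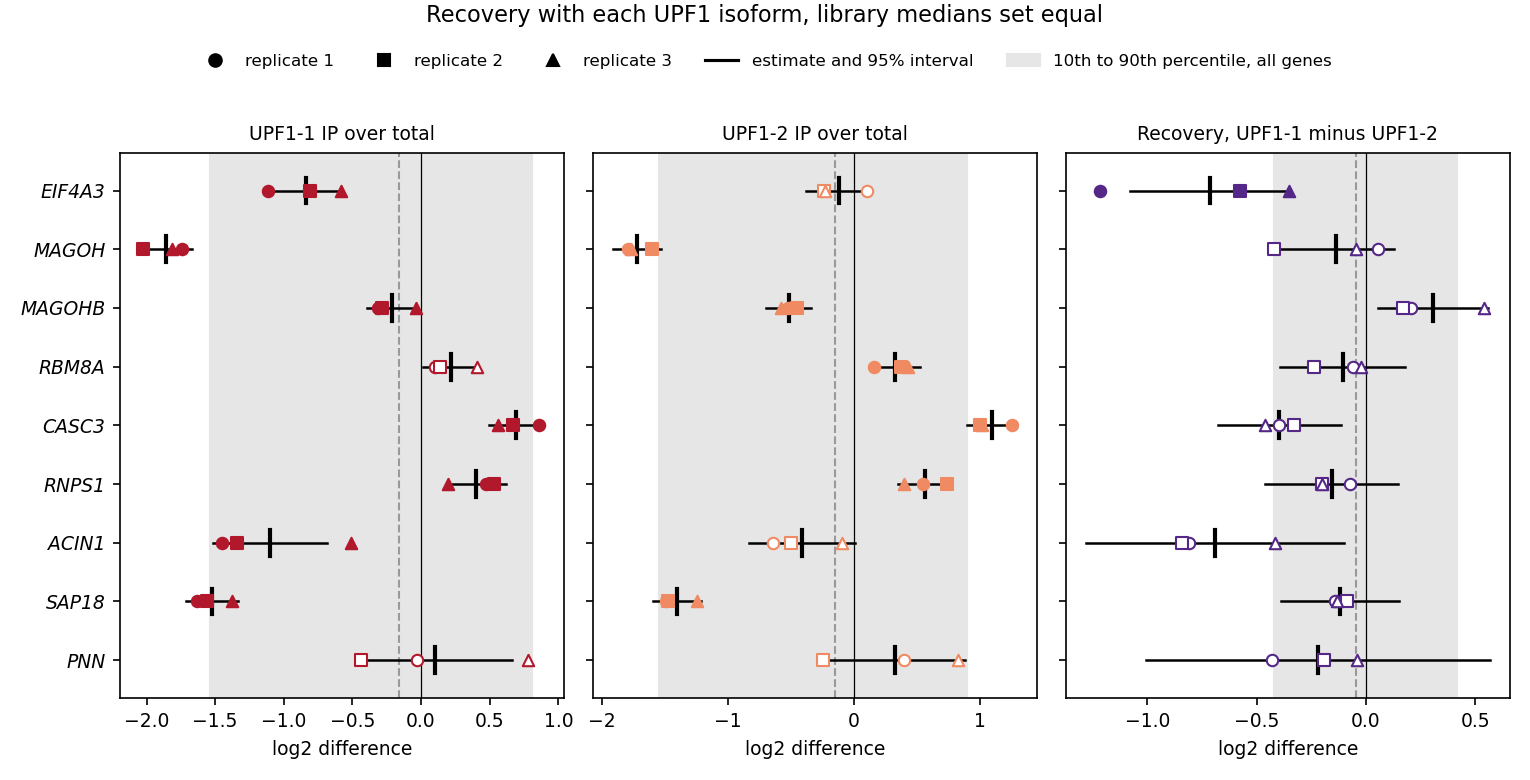
Log2 recovery (IP over total RNA, library medians set equal) of each EJC transcript with UPF1-1 and with UPF1-2, and the difference UPF1-1 minus UPF1-2; points are replicate numbers, bars are 95% intervals, filled points mark a limma adjusted p below 0.05, the grey band spans the 10th to 90th percentile of all genes and the dashed line is their median. CASC3 lies highest and MAGOH and SAP18 lowest with both isoforms, and EIF4A3 is the 1 filled row of the difference.

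The MAGOH paralogs had unlike recovery values in every IP. MAGOHB had 99.6, 96.5 and 94.9 TPM in UPF1-1 IP, against 22.4, 22.03 and 13.1 TPM in UPF1-1 total RNA, and 77.9, 76.2 and 76.2 TPM in UPF1-2 IP, against 17.5, 18.2 and 20.5 TPM in UPF1-2 total RNA. In TPM its IP values were the most even of all members. The library medians were 11.8, 11.0 and 19.9 TPM in UPF1-1 IP and 11.2, 10.9 and 18.4 TPM in UPF1-2 IP. Relative to these medians MAGOHB was therefore lower in replicate 3. Recovery of MAGOHB was -0.21 ± 0.08 with UPF1-1 (limma adjusted p 0.035; percentile 47.6, close to the median gene) and -0.52 ± 0.08 with UPF1-2 (0.00033), and neither passed in the fit with no replicate block (0.64 and 0.24). The call with UPF1-1 was also lost without replicate 1 (-0.16, 0.32) or replicate 2 (-0.18, 0.19), and with a pseudocount of 1 TPM (-0.03, 0.75). The log2 ratio of IP to total RNA was higher for MAGOHB than for MAGOH in 6 of 6 IPs, by 1.14 to 1.80 and by 1.43 ± 0.28 on average (SD, n = 6). The 6 IPs share 3 replicate numbers, and averaged over the isoforms the difference was 1.340, 1.442 and 1.4996 at replicates 1, 2 and 3. An exact two-sided sign-flip permutation test over these 3 numbers gave p = 0.25. That is the smallest p this test can give with 3 numbers, so it cannot decide about this difference. Since both transcripts were read in the same libraries, this difference does not depend on how libraries were scaled.

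MAGOHB made up 75.2 to 88.8% of the summed TPM of the pair in UPF1-1 IP and 70.0 to 83.8% in UPF1-2 IP, against 46.6 to 72.3% in UPF1-1 total RNA, 50.4 to 68.5% in UPF1-2 total RNA and 46.1 to 68.7% in GFP total RNA. Within each group replicate 3 had the lowest share. The level of RBM8A relative to MAGOH plus MAGOHB, its protein partners, was 0.55 to 1.06 in the 6 IPs and 0.32 to 0.48 in the 9 total RNA libraries.

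EIF4A3 was the member called for a difference in recovery between the isoforms. It had 32.4, 32.7 and 91.6 TPM in UPF1-1 IP, against 12.5, 10.6 and 18.7 TPM in UPF1-1 total RNA. In UPF1-2 IP it had 73.6, 55.4 and 111 TPM, against 10.5, 11.2 and 23.6 TPM in UPF1-2 total RNA. IP values were lower with UPF1-1 than with UPF1-2 at each replicate number, though the ranges of the IPs overlapped, as did those of total RNA. Recovery was -0.84 ± 0.11 with UPF1-1 (limma adjusted p 0.00018) and -0.12 (95% interval -0.38 to 0.14) with UPF1-2, which did not pass. It passed below 0 with a pseudocount of 0.1 TPM (-0.31, 0.034), and above 0 with no centring (2.41), as every member did.

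The test of the difference, UPF1-1 minus UPF1-2, gave -0.71 ± 0.16 for EIF4A3 (limma adjusted p 0.032), 0.61-fold, with -1.22, -0.58 and -0.35 at replicates 1, 2 and 3. It was 1 of 9 members called lower with none higher, where 10.7% of genes were called, 6.27% lower and 4.43% higher. Among 11969 genes its difference stood at percentile 1.2. The size rests in part on replicate 1, without which it was -0.46 and did not pass (limma adjusted p 0.35). Without replicate 2 it was -0.78 (0.095) and without replicate 3 it was -0.89 (0.029). In the fit with no replicate block the limma adjusted p was 0.67, and with no centring it was 0.21. This fit compares the isoforms without pairing their replicate numbers. With the replicate number also a term for recovery, an alternative chosen after the data were seen, 3 of 9 members were called lower, where 1785 of 11969 genes were lower and 1212 higher. They were EIF4A3 (-0.71, limma adjusted p 0.016), ACIN1 (-0.69, 0.0090) and CASC3 (-0.40, 0.014), so EIF4A3 does not stand apart from ACIN1 and CASC3 under pairing.

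ACIN1, the ASAP scaffold, came next to it. It had 3.16, 3.07 and 26.1 TPM in UPF1-1 IP, against 1.34, 1.23 and 4.78 TPM in UPF1-1 total RNA. In UPF1-2 IP it had 5.56, 5.18 and 28.8 TPM, against 1.01, 0.93 and 5.22 TPM in UPF1-2 total RNA. Replicate 3 was far above the others in every group, so that the ranges of IP and total RNA overlapped. Recovery was -1.10 ± 0.18 with UPF1-1 (limma adjusted p 0.00061; 0.18 in the fit with no replicate block) and -0.41 (95% interval -0.83 to 0.00) with UPF1-2 (0.067; -0.53 and 0.038 under upper-quartile scaling, 0.0024 with the number as a term for recovery). The difference between the isoforms was -0.69 (-1.28 to -0.10; percentile 1.5) and did not pass without pairing (0.12). Without replicate 3 it was -0.82 and passed (0.029), and recovery with UPF1-2 was then -0.58 and also passed (0.0015). In total RNA of replicates 1 and 2 ACIN1 lay between 0.93 and 1.51 TPM, not far above the pseudocount of 0.5 TPM that was added before taking logs.

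For CASC3 the difference was -0.40 (95% interval -0.68 to -0.12; limma adjusted p 0.074 without pairing), lower with UPF1-1 at all 3 numbers by -0.40, -0.33 and -0.46, and for MAGOHB it was 0.31 (0.05 to 0.56; 0.11), higher at all 3. MAGOH, RBM8A, RNPS1, SAP18 and PNN had differences of -0.14, -0.11, -0.16, -0.12 and -0.22, with intervals that included 0. In all, 8 of 9 differences were negative, with a median of -0.16 against -0.04 for all genes tested. As that median is below 0, most genes tested were negative too, but their upper quartile was 0.196. Of the 22 partners described below, 19 were negative. The direction was thus also seen outside the members, and whether 8 of 9 exceeds the share over all genes was not tested.

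The order of recovery was set beside transcript length, a property the rule did not use. Relative length was taken from the deposited table, as the authors' mean log estimated count minus the mean log TPM of the same libraries, with the median gene at 0. Over 8538 genes, longer transcripts had higher recovery, with a Spearman rho of 0.53 with UPF1-1 and 0.55 with UPF1-2 across genes. Both quantities contain total RNA TPM, and genes are not independent replicates. Over the 9 members rho was 0.40 and 0.47.

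Members of like length differed widely. MAGOH and MAGOHB were both in the shortest of 10 length bins, at 0.16 and 0.19 of the median length. The median recovery of that bin was -1.80 with UPF1-1 and -1.80 with UPF1-2; MAGOH lay close to it and MAGOHB above it by 1.59 and 1.28. ACIN1, at 1.98 times the median length, and RBM8A, at 1.80 times, shared bin 9, where medians were 0.39 and 0.41. RBM8A was within 0.18 of these, and ACIN1 was below them by -1.49 and -0.83. SAP18, at 0.71 of the median length, was below its bin by -1.28 and -1.22. CASC3 and RNPS1 lay above theirs by 0.35 and 0.43 with UPF1-1 and by 0.71 and 0.50 with UPF1-2, and PNN by 0.62 and 0.81. For PNN these values rest in part on replicate 3, where its recovery was highest (0.78 with UPF1-1 and 0.82 with UPF1-2). EIF4A3 lay below its bin with UPF1-1, by -0.32, and above it with UPF1-2, by 0.36.

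**Figure D4:**
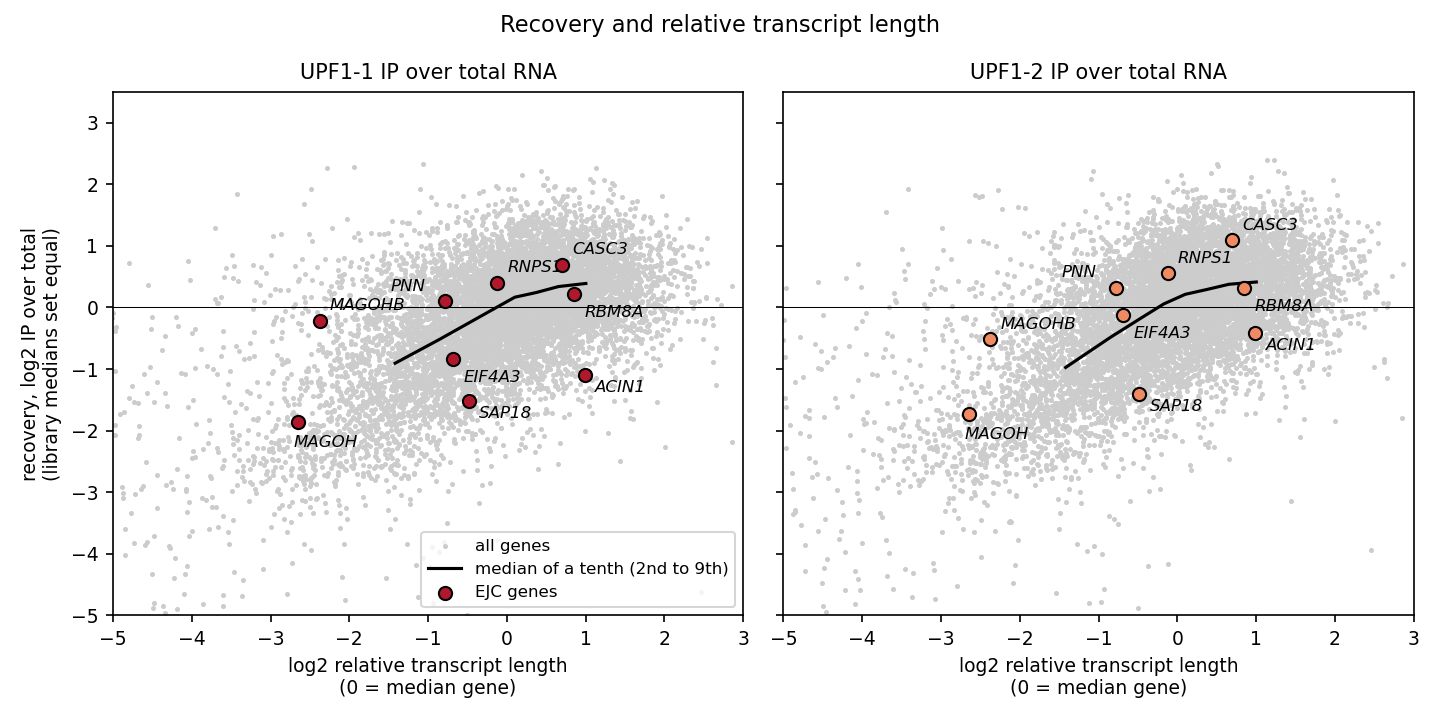
Recovery (log2 IP over total RNA, library medians set equal) against log2 relative transcript length for genes with at least 1 TPM on average in total RNA (grey), with the 9 EJC transcripts coloured and the black line joining the medians of length bins 2 to 9. MAGOH and MAGOHB are short and far apart, and ACIN1 and SAP18 lie under the line in both panels.

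Over all 15 libraries, the transcripts whose centred levels were most like those of a core member are given as a description, since the 15 libraries fall in 5 groups. For MAGOH they were COX5A, RPLP1 and RPL27A, a respiratory chain subunit and ribosomal proteins (Pearson r = 0.99 for each over 15 libraries). MAGOHB was closest to CENPH, LSM5 and ENOPH1 (0.99 each) and CASC3 to LETM1, TXLNA and CCDC97 (0.99 each). EIF4A3 was closest to SAMM50 (0.94), LDHB (0.94) and FAM21A (0.93), and RBM8A to BDP1 (0.92), FAM115B (0.92) and AHCYL2 (0.91). Between the paralogs MAGOH and MAGOHB r was 0.15.

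A list of 22 partners was taken beside the members: factors that load, import or remove the EJC, the export factors that meet it, its NMD contacts and the paralogs of EIF4A3. In UPF1-1 against GFP total RNA 2 of 22 were called higher and 3 lower by limma, 22.7% beside 16.2% of all genes (8.38% higher, 7.79% lower). EIF4A2, a translation initiation helicase, was higher by 0.46 ± 0.06 (SE) and the export cofactor NXT1 by 0.45 ± 0.07. THOC2, a scaffold of the THO export complex, was at -0.60 ± 0.07, UPF3B, which links the EJC to UPF2, at -0.51 ± 0.08 and the splicing coactivator SRRM1 at -0.46 ± 0.06. The same 5 genes were called in the same direction between UPF1-1 and UPF1-2 total RNA, comparisons that share the UPF1-1 libraries, where 9.51% of all genes were called. By limma 0 of 22 were called in UPF1-2 against GFP (5 at an unadjusted p under 0.05). There 0.375% of all genes were called, and 1128 of 9325 had an unadjusted limma p under 0.05. The list's medians in these comparisons, with UPF1-1 against GFP first, UPF1-1 against UPF1-2 next and UPF1-2 against GFP last, were 0.02, 0.03 and -0.02, against -0.01, 0.00 and -0.02 for all genes tested.

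In recovery, 5 of 22 partners were higher and 12 lower with UPF1-1, and 5 higher and 9 lower with UPF1-2, with medians of -0.36 and -0.07 against -0.16 and -0.15 for all genes tested. These are 77.3% and 63.6% of the list, beside 74.7% and 75.7% of all genes, near or below the background. UPF2, the adaptor between UPF3B and UPF1, was at 1.70 and 1.91, THOC2 at 1.14 and 1.66 and POLDIP3, a kinase target found on EJC-bearing mRNA, at 0.90 and 1.24. THOC6 was at -1.45 and -1.21 and NXT1 at -1.28 and -1.51. ALYREF, an mRNA export adaptor, was at -1.31 and -1.11, and THOC7, another THO subunit, at -1.28 and -1.45. Of the 22 partners, the EIF4A3 paralog EIF4A1 alone was called for a difference between the isoforms, at -0.46 ± 0.10 (limma adjusted p 0.027), where 10.7% of all genes were. Its call was lost with no replicate block (0.57), with no centring (0.18), with a pseudocount of 1 TPM (0.051), and without replicate 1 (0.38) or replicate 2 (0.11). Its recovery was -0.85 with UPF1-1 and -0.39 with UPF1-2. EIF4A2 was at 0.34 and 0.52, and its difference of -0.18 did not pass.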

How the data were processed

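RNA was sequenced from HEK-293 Trex lines after rRNA depletion, per the labels' protocols. The authors deposited 1 table of 12261 genes. Per the file headers its values were TPM per library, the ratio of IP to total TPM, log2 ratios of mean TPM, sleuth p-values and q-values, and sleuth effects and mean estimated counts on the natural log scale. The submitters' processing notes name cutadapt, kallisto, sleuth and hg19, without versions. The deposited ratio and log2 columns equalled recomputed values in 100% of entries, within 1e-06. A geometric mean of 423 to 17888 estimated counts per library stood behind each member in total RNA, from the deposited mean natural log.

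Values were taken as log2(TPM + 0.5). A gene was tested where 3 or more of the fitted libraries reached 1 TPM, library medians were set equal, and limma 3.58.1 (R 4.3.3) was fitted with a trend. Fold changes are on this scale, which understates changes of low genes. The median gene was itself low in total RNA, at 1.39 to 2.96 TPM. The centred recovery of more abundant members therefore also depends on the pseudocount. The total RNA fit held 9 libraries and 9325 genes, with the replicate number as a block. The IP fit held 12 libraries and 11969 genes, with each pair of IP and total RNA libraries of the same isoform and number as a block. P-values were two-sided and Benjamini-Hochberg adjusted over all genes tested, with a threshold of 0.05.

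The number pairs libraries because deviations from group means correlated at 0.70 to 0.95 (9 pairs) and 0.57 to 0.91 (18 pairs) for the same number, and the deposited ratios were formed within it. Numbers 1 and 2 correlated with each other at 0.58 to 0.80 and are not told apart by this. Other settings were no block, no centring, both, upper-quartile scaling, pseudocounts of 0.1 and 1 TPM, no filter, and leaving out each replicate number; the replicate number by RNA kind (IP or total) was added after the data were seen, to compare the isoforms within a number. The fits were tested on simulated data. The members, the partner list and this fit were chosen with earlier results of these data known. All members are named, and of the partners up to 3 called in each direction per comparison; names most like a core member came from 7354 genes with a mean of at least 5 TPM. No protein lengths were used; relative transcript length took their place, chosen after the data were seen. EIF4A1 and EIF4A2 are also given as paralogs of EIF4A3. Of the table's gene IDs 11933 matched a current name; that of RBM8A did not, and its symbol in the table was used.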

Additional observations from a re-analysis of the deposited data

Results flagged for a closer look

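The recovery of EIF4A3 was flagged because the test of the difference between the isoforms passed. It gave -0.71 on the log2 scale for UPF1-1 minus UPF1-2 (limma adjusted p 0.032, range over the other settings 0.016 to 1.00). EIF4A3 was 1 of 9 members called, where 10.7% of all genes were, so the count is near the background. All 3 replicate numbers had the same direction, as they did for every other member except MAGOH. The UPF1 entry was also higher in UPF1-1 than in UPF1-2 total RNA, by 0.31 (limma adjusted p 0.036), where the authors' sleuth p-value was 0.087. That entry is 1 transcript (ENST00000262803) and the lines carried different UPF1 isoforms, so it may not measure UPF1 alike in both. The part of that difference in the result for EIF4A3 was not tested.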

How the results depend on the processing

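Direction and side of the threshold were unchanged in 461 of 540 member values under the 10 other settings; 24 lost the call, 13 gained one and 42 changed sign. Of the sign changes, 22 had no call in either setting. With no centring, with or without the block, these were MAGOH 0.011, ACIN1 0.020 and SAP18 0.0093 in UPF1-1 against GFP total RNA, SAP18 0.0093 in UPF1-2 against GFP, and RBM8A 0.052 between the isoforms, where RBM8A was also 0.0005 with a pseudocount of 1 TPM and 0.021 with no filter. CASC3 in UPF1-2 against GFP was -0.0027 with no filter, and EIF4A3 recovery with UPF1-2 was 0.061 with a pseudocount of 1 TPM. Over the replicates left out, signs changed for ACIN1 in UPF1-1 against GFP (-0.17 to 0.025), CASC3 in UPF1-2 against GFP (-0.040 to 0.080), CASC3 (-0.011 to 0.12), MAGOHB (-0.17 to 0.081) and RBM8A (-0.031 to 0.0040) between the isoforms, PNN recovery with UPF1-1 (-0.24 to 0.37) and the MAGOH difference in recovery (-0.23 to 0.012). The 20 sign changes with a call all came from leaving out the centring, with or without the block, which moves every IP value up. With UPF1-1 the values became 1.72 (EIF4A3), 0.70 (MAGOH), 2.35 (MAGOHB), 1.46 (ACIN1) and 1.04 (SAP18), and with UPF1-2 they became 2.41, 0.81, 2.01, 2.12 and 1.12. In recovery with UPF1-1, members called higher and lower numbered 1 and 3 with no replicate block, 9 and 0 with no centring, 7 and 0 with neither, and 1 higher with a pseudocount of 0.1 TPM; over the replicates left out they numbered 1 to 2 and 4 to 5. With UPF1-2 they numbered 9 and 0 with no centring and 8 and 0 with neither. With no centring the median gene was itself higher by 2.40 with UPF1-1 and 2.38 with UPF1-2, so these counts say little about the members. The 1 member called lower in UPF1-1 against GFP total RNA became 0 with no replicate block, with no centring, with neither, with a pseudocount of 1 TPM and with no filter, and 0 to 1 over the replicates left out. The 1 member called for a difference in recovery became 0 with no replicate block, with no centring and with neither, 0 to 2 over the replicates left out, and 3 with the replicate block by RNA kind. The cause was not tested. Over all genes the difference in recovery called 0 genes without the block or without centring, and 0 without replicate 1 or without replicate 2. Low TPM limits ACIN1 and PNN.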
